A study of Mus musculus with 13 samples.

Results

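The genes described here are 10 genes of MHC class I and class II antigen presentation, measured by RNaseq in livers of alcohol-fed mice. They are the class I heavy chains H2-Q10, H2-K1 and H2-D1, their light chain B2m, the peptide transporter genes Tap1 and Tap2, the class II chains H2-Aa, H2-Ab1 and H2-Eb1, and the invariant chain Cd74. They were taken by symbol from the 53392 genes of the count table, and all 10 were among the 14317 genes with enough counts to test. The set was selected on the level of H2-Q10, which was higher in ASAH- mice given Dox than in ASAH+ mice without Dox. Differences and counts in that contrast are therefore a description for all 10 genes and no test, and the tests of the other contrasts, which share mice with it, are given for the 9 genes other than H2-Q10.

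Whole-liver RNA came from 13 female mice, 8 to 14 weeks of age, which received 28% of calories from ethanol in a Lieber-DeCarli liquid diet for 4 weeks. All carried a Rosa26 loxP-stop-loxP-rtTA allele in homozygous form and Albumin-Cre, so that hepatocytes make the Dox-dependent activator rtTA. ASAH+ mice also carried the TRE-ASAH1 transgene for acid ceramidase, and ASAH- littermates did not. The groups were 4 ASAH- mice on Etoh-Dox (Dox at 200 mg/l), 5 ASAH+ mice likewise on Etoh-Dox, and 4 ASAH+ mice that had Etoh without Dox. No group had ASAH- mice without Dox and none was fed without ethanol, so Dox was compared only within ASAH+ mice, where it comes with the transgene. For ASAH+ mice the titles name the opposite Dox treatment from the descriptions and induction labels, and the latter pair was used. The level of Asah1 was 9668 to 15935 CPM (counts scaled to the TMM-normalized library size) in the 5 mice described as induced and 40.0 to 55.0 CPM in the other 8. Each mouse had between 17819486 and 35358711 counts, of which the 10 genes took 0.389 to 0.601%. Hepatocyte markers, among them Alb, were present in every mouse. Red-cell markers summed to 135 to 192 CPM in ASAH+ mice on Etoh and to 215 to 1714 CPM in the 9 mice given Dox.

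Class I molecules present peptides from inside the cell to cytotoxic T cells. Their heavy chain pairs with beta-2 microglobulin and is loaded in the endoplasmic reticulum with peptides that the Tap1-Tap2 transporter brings in from the cytosol. H2-Q10 is a nonclassical class I heavy chain of the mouse that the liver secretes. Class II molecules are alpha-beta dimers that present peptides from endosomes to helper T cells, and the invariant chain Cd74 escorts them there. In liver they are found mainly on dendritic cells, B cells and macrophages, including Kupffer cells, while class I is found on nearly every cell. Interferon raises class I genes through NLRC5 and interferon regulatory factors, and class II genes through CIITA.

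On GRCm38, 8 of the 10 genes lie on chromosome 17, in the mouse MHC. H2-K1 is at chr17:33996017-34000347, Tap1 at chr17:34187553-34197225, Tap2 at chr17:34203527-34216321, H2-Ab1 at chr17:34257689-34269419, H2-Aa at chr17:34282744-34287823, H2-Eb1 at chr17:34305867-34316674, H2-D1 at chr17:35262730-35267499 and H2-Q10 at chr17:35470089-35474563. B2m lies on chromosome 2, at chr2:122147686-122153083. H2-K1 and H2-Aa are on the minus strand and the others on the plus strand.

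Promoter windows of 250 bases before to 50 bases after the start of the RNA were read from RefSeq (GRCm38.p6) for 7 of the 10 genes. The class I heavy chains H2-K1 and H2-Q10 are shown first, because H2-Q10 differed between groups while H2-K1, its close relative, overlapped between them. H2-Q10 was chosen for that difference, and a part of the promoter bases in it was not tested. The H2-K1 stretch is chr17:34000373-34000467 on the minus strand and the H2-Q10 stretch is chr17:35469904-35470002 on the plus strand. Capitals in H2-K1 mark matches to motifs for NF-kappa B (GGGANTCCC), interferon regulatory factors (GAANNGAAA, here on the opposite strand) and cyclic AMP response factors (TGACGC). Capitals in H2-Q10 mark the bases aligned to them.
H2-K1: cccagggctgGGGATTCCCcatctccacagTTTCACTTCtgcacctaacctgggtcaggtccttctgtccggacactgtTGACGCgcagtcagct
H2-Q10: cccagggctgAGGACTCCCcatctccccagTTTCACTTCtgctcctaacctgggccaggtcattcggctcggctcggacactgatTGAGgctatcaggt

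In an alignment of the 250 upstream bases, 163 of 183 aligned bases were identical between H2-Q10 and H2-K1 (89.1%), and 170 of 190 between H2-D1 and H2-K1 (89.5%). All 9 bases of the interferon regulatory factor match were identical in H2-Q10. The NF-kappa B match of H2-K1 carried G1A and T5C in H2-Q10, counted from 1 at the first base of the match, and position 5 is free in the motif. Of the 6 bases of the cyclic AMP response match, 3 were identical in H2-Q10, 2 fell in a gap and the last carried C6G. H2-D1 held one match to each of the same 3 motifs, at 170, 150 and 101 bases before its annotated start for their first base, against 110, 90 and 41 bases in H2-K1. In searches of both strands of all 32851 RefSeq promoter windows, GAANNGAAA was found in 7.52%, GGGANTCCC in 0.767% and TGACGC in 7.40% of windows. Another motif, GATTGG (the Y box of class I and class II promoters), was found in 16.1% of windows. No match in a window of the 10 genes overlapped another.

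H2-Aa and H2-Eb1 are shown because the class II genes moved together from mouse to mouse. Their stretches are chr17:34287857-34287912 on the minus strand and chr17:34305767-34305847 on the plus strand, and capitals mark GATTGG on either strand.
H2-Aa: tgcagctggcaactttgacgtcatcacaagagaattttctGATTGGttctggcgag
H2-Eb1: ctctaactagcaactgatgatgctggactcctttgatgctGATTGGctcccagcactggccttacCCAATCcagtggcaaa

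GATTGG was also found on one strand in the windows of B2m, H2-K1, H2-D1 and Tap1, but not in that of H2-Q10. The Tap1 match lies 217 to 222 bases before the Tap1 start and is the same copy as the match 4 to 9 bases before the start of Psmb9, a subunit of the immunoproteasome. Tap1 and Psmb9 are transcribed away from each other from starts 226 bases apart, and in the GENCODE annotation both genes overlap at their starts on opposite strands. These matches describe the letters of the windows only.

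Within one mouse, levels can be set against each other only per length, and the unit used was CPM per kilobase of transcript. In ASAH+ mice on Etoh, B2m was highest, at 1489 ± 62.0 (SD, n = 4). H2-K1 followed at 684 ± 66.8 and H2-Q10 at 593 ± 30.4, and the ranges of these 2 genes over the 4 mice overlapped. H2-D1 was at 255 ± 28.5. The class II genes were lower, with Cd74 at 32.5 ± 4.45, H2-Aa at 15.1 ± 1.72, H2-Eb1 at 9.33 ± 1.62 and H2-Ab1 at 8.96 ± 1.26. Tap1 at 6.39 ± 1.12 and Tap2 at 5.85 ± 0.726 were lowest, and their ranges overlapped. Over coding length in place of transcript length, H2-Q10 stood above H2-K1, H2-Ab1 (13.7) above H2-Eb1 (12.7) and Tap2 (9.56) above Tap1 (8.69), so the order within these pairs depends on the length used.

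H2-Q10 was lower in all 4 mice without Dox than in the 9 mice given it. Its level was 1453, 1650.5, 1557 and 1382 CPM in the 4 ASAH- mice on Etoh-Dox. In the 5 ASAH+ mice on Etoh-Dox it was 1509, 1445, 1466, 1487 and 1468 CPM. In the 4 ASAH+ mice on Etoh it was 1228, 1121, 1139 and 1239 CPM. The groups given Dox overlapped each other and neither overlapped the group without it. The means were 1511 ± 118 (SD, n = 4), 1475 ± 24.2 (n = 5) and 1182 ± 60.6 CPM (n = 4). The difference that chose the gene, between the first group and the last, was 0.35 on the log2 scale (SE 0.075, 1.28-fold). ASAH+ mice on Etoh-Dox were 0.32 above ASAH+ mice on Etoh (SE 0.072, 1.25-fold) and were higher in 20 of 20 pairs of mice. With the transgene against without it, both on Dox, the difference was -0.03 (SE 0.071). Of all genes, 1.09% were higher without overlap with Dox in ASAH+ mice, and nothing is read from H2-Q10 being among them.

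**Figure D1:**
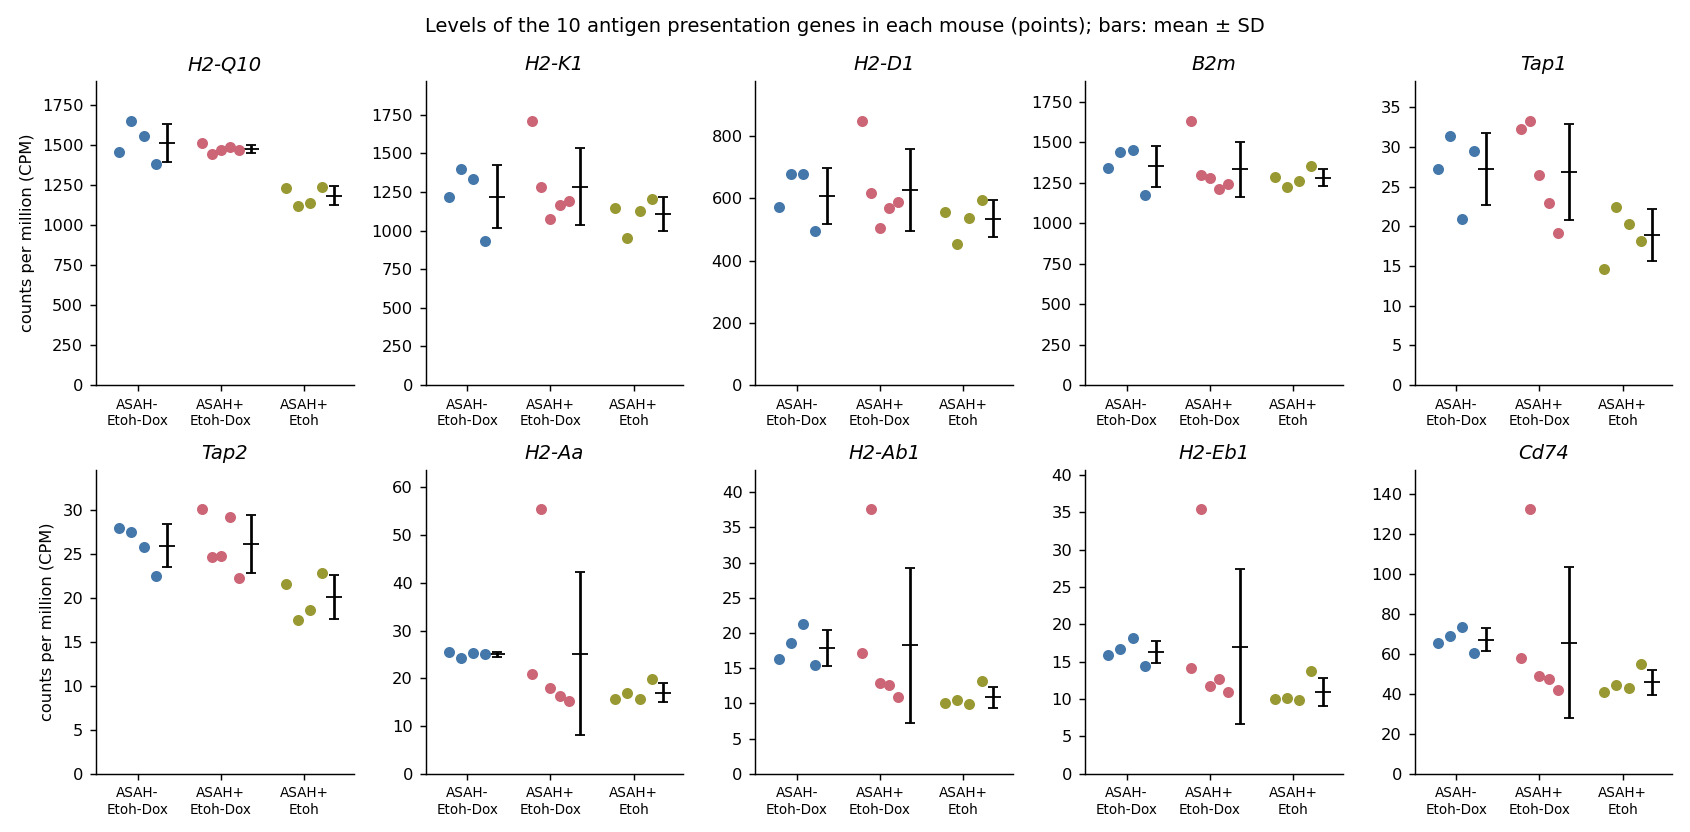
Levels of the 10 genes in CPM (vertical axes, each from 0) in each of 13 mice (points), by group, with the mean ± SD beside them. H2-Q10 is lower in all 4 ASAH+ mice on Etoh (1121 to 1239 CPM) than in the 9 mice given Dox, and 1 ASAH+ mouse on Etoh-Dox stands far above the rest for all 4 class II genes.

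Between the genotypes on Etoh-Dox, the contrast that isolates the transgene, the mean levels of the 10 genes lay close together. The log2 differences ran from -0.03 (H2-Q10) to 0.07 (H2-K1), with a median of 0.012 beside a median of -0.0023 over all 14317 genes. By edgeR at an adjusted p under 0.1, 0 of the 9 genes other than H2-Q10 differed, and 0 did at an unadjusted p under 0.05, where 0.014% and 2.86% of all genes did. Each of the 9 had an adjusted p of 0.9997. DESeq2 (on all mice or on the 2 groups alone) and limma-voom also called 0 of them, beside 0.0756%, 0.058% and 0.014% of the genes given an adjusted p. No gene of the 10 separated the groups, beside 0.44% of all genes that were higher without overlap and 0.447% that were lower.

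For class I, H2-K1 was at 1285 ± 249.5 CPM (n = 5) in ASAH+ and 1220.4 ± 206 CPM (n = 4) in ASAH- mice, a log2 difference of 0.07 (SE 0.14). Its highest value, 1712 CPM, was in replicate 1 of the ASAH+ mice on Etoh-Dox, and its lowest, 934 CPM, in replicate 4 of the ASAH- mice. H2-D1 (0.04, SE 0.15) and B2m (-0.02, SE 0.097) were also highest in that ASAH+ mouse and lowest, among mice on Etoh-Dox, in that ASAH- mouse. Without that ASAH+ mouse the log2 differences were -0.05 for H2-K1, -0.09 for H2-D1 and -0.10 for B2m, none past the threshold. Tap1 differed by -0.02 (SE 0.17) and Tap2 by 0.01 (SE 0.11).

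For class II, ASAH+ and ASAH- mice had near-equal means, but the ASAH+ mean rested on 1 mouse. H2-Aa was at 25.4, 24.3, 25.3 and 25.0 CPM in the 4 ASAH- mice. In the 5 ASAH+ mice it was at 21.0, 55.4, 17.9, 16.3 and 15.2 CPM. Replicate 2 of the ASAH+ mice was above all ASAH- mice and the other 4 were below them.

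Cd74 repeated this order. It was at 65.6, 69.1, 73.5 and 60.3 CPM in ASAH- mice. In ASAH+ mice it was at 57.7, 132, 48.8, 47.5 and 41.8 CPM. H2-Ab1 and H2-Eb1 were likewise highest in ASAH+ replicate 2, at 37.6 and 35.4 CPM, against at most 17.1 and 14.2 CPM in the other 4 ASAH+ mice.

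With that mouse left out, a choice made after its values were seen, the class II means were below those of ASAH- mice. The log2 difference was -0.51 for H2-Aa (SE 0.11), -0.42 for H2-Ab1 (SE 0.15), -0.39 for H2-Eb1 (SE 0.13) and -0.46 for Cd74 (SE 0.12). None passed the threshold by edgeR, with an adjusted p of 0.966 for H2-Aa. H2-Aa, H2-Eb1 and Cd74 then did not overlap between the groups, where 1.05% of all genes were lower without overlap. For each of these 3 genes the exact two-sided permutation p was 0.0286, the smallest that 4 mice against 4 can give, and it was 0.0857 for H2-Ab1. The mouse left out was the only ASAH+ mouse not below the ASAH- mice for H2-Aa, H2-Eb1 and Cd74. Leaving it out fixed their separation and p in advance, so neither is a test. The share of all genes is no fair comparison either. With all 5 ASAH+ mice, the exact permutation p of the 4 class II genes ran from 0.698 to 0.889.

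The ASAH+ mouse that was high for class II was also high for dendritic, T cell and NK cell markers. Its 8 dendritic cell markers summed to 15.7 CPM, against 7.58 to 8.39 CPM in the other 4 ASAH+ mice on Etoh-Dox and 8.26 to 11.5 CPM in ASAH- mice. For 6 of these 8 markers it was the highest of all 13 mice, among them Itgax (3.24 CPM), Flt3 (1.12 CPM) and Ccr7 (0.83 CPM). For 6 of 8 T cell and NK cell markers it was likewise the highest of the 13, and their sum was 7.46 CPM against 3.12 to 3.49 CPM in the other 4 mice of its group. Kupffer cell markers summed to 713 CPM, beside 376 to 709 CPM in those 4 mice, and hepatocyte markers lay within their range. So did the sum of monocyte and recruited macrophage markers (96.1 CPM, in a group range of 40.9 to 100.4 CPM). For 4 of these 7 markers this mouse was still the highest of the 13. B cell markers (14.8, in 8.88 to 15.4 CPM) and neutrophil markers (1.44, in 0.56 to 1.74 CPM) also lay within the group range. Its stellate cell sum (271 CPM) and cholangiocyte sum (46.8 CPM) were above the 202 to 254 and 31.5 to 43.6 CPM of the other 4 mice. Its red-cell sum (241 CPM) was below their 355 to 871 CPM. Between the genotypes on Etoh-Dox, all 10 Kupffer cell markers had a negative log2 difference (median -0.27), with sums of 376 to 713 CPM against 504 to 1029 CPM. So had all 7 sinusoidal endothelial cell markers (median -0.39, 4 of them at an unadjusted p under 0.05, beside 1.57% of all genes and 0 of the Kupffer cell markers), all 5 cholangiocyte markers (-0.35), all 5 red-cell markers (-0.36) and all 7 stellate cell markers (-0.16), with 7 of 8 hepatocyte markers (-0.15). Dendritic cell markers had a positive difference in 4 of 5 (median 0.22), which rested on replicate 2 of the ASAH+ mice. Without it the sums of the 8 markers were 7.58 to 8.39 CPM, against 8.26 to 11.5 CPM in ASAH- mice. The remaining immune lists were mixed. A positive difference was found for 5 of 8 B cell markers (median 0.06) and 3 of 6 T cell and NK cell markers tested (0.0015). It was found for 3 of 6 monocyte and recruited macrophage markers tested (-0.01) and for 0 of 2 neutrophil markers tested (-0.46). In whole liver, fewer cells of a type and less RNA per cell cannot be told apart. The part of these cell types in the class II levels was not tested.

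**Figure D2:**
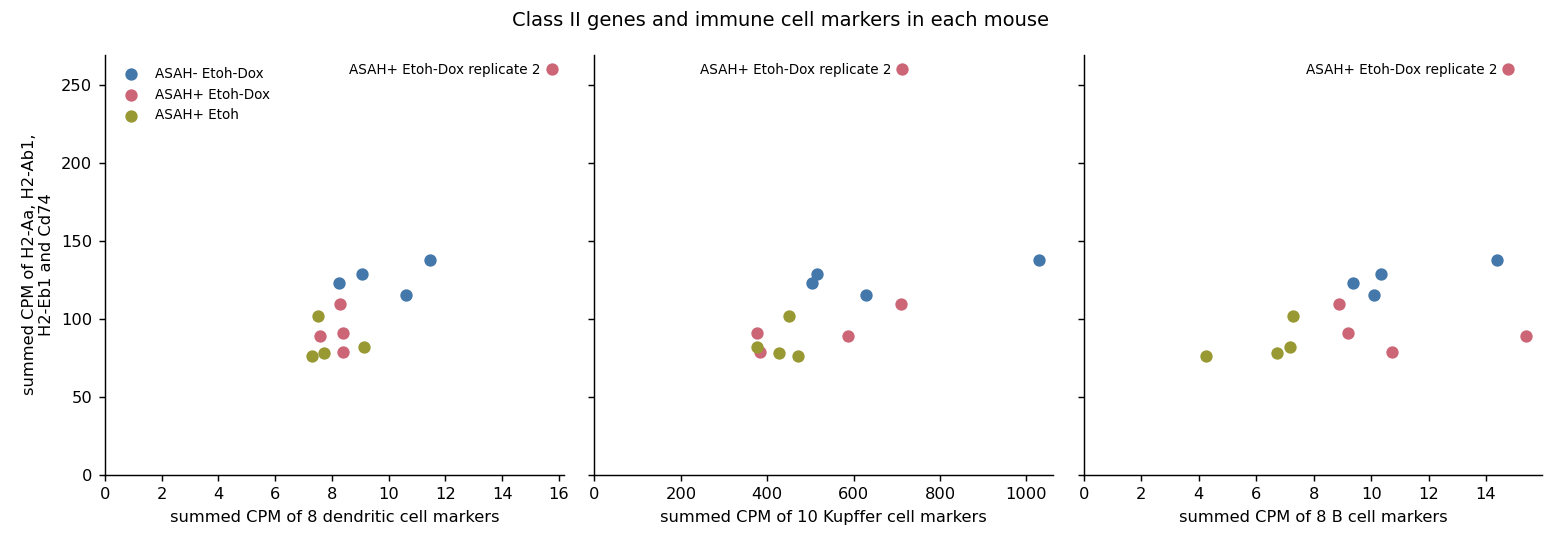
Summed CPM of H2-Aa, H2-Ab1, H2-Eb1 and Cd74 (vertical axis) against the summed CPM of dendritic cell, Kupffer cell and B cell markers (horizontal axes) in each of 13 mice, coloured by group. Replicate 2 of the ASAH+ mice on Etoh-Dox is the highest point in all panels and is the highest of the 13 along the dendritic cell axis (15.7 CPM) but not along the other 2.

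Over all 13 mice, the mean log2 CPM of the 4 class II genes had a Pearson r of 0.87 with that of the dendritic cell markers, 0.86 with monocyte and recruited macrophage markers, 0.78 with T cell and NK cell markers, 0.63 with Kupffer cell markers and 0.39 with B cell markers. Without the mouse that stood apart these were 0.56, 0.69, 0.46, 0.70 and 0.39. Markers of stellate cells, which are no immune cells, had r = 0.59 over all 13 mice and 0.76 without that mouse, above each of the immune lists. The other 5 lists, hepatocyte markers among them, had r = -0.32 to 0.19 and 0.12 to 0.51. These correlations share libraries and groups and are given as a description.

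With Dox against without it in ASAH+ mice, the levels of all 10 genes were on average higher with Dox. The log2 differences had a median of 0.51 over the 9 genes other than H2-Q10, beside 0.01 over all genes tested. Those of the 4 class II genes fell to between 0.05 and 0.31 without the 1 mouse that stood apart. By edgeR, 0 of the 9 genes other than H2-Q10 passed an adjusted p under 0.1, beside 0.014% of all genes. At an unadjusted p under 0.05, 3 of the 9 were higher and none lower, where 4.05% of all genes were higher and 3.24% lower. Those 3 were Tap1, Tap2 and H2-Ab1.

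Of the class I genes other than H2-Q10, the peptide transporter genes had the lowest p. Tap2 was at 30.1, 24.6, 24.8, 29.2 and 22.3 CPM in ASAH+ mice on Etoh-Dox, and at 21.6, 17.5, 18.6 and 22.8 CPM in ASAH+ mice on Etoh. Its log2 difference was 0.38 (SE 0.11, edgeR p = 0.00413, adjusted p = 0.507), and the groups overlapped by 1 pair, with Dox higher in 19 of 20 pairs (exact two-sided permutation p = 0.0238). In ASAH- mice on Etoh-Dox it was at 27.9, 27.6, 25.8 and 22.6 CPM.

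Tap1 was at 32.2, 33.3, 26.5, 22.98 and 19.2 CPM on Etoh-Dox and at 14.7, 22.4, 20.3 and 18.2 CPM on Etoh in ASAH+ mice. The log2 difference was 0.51 (SE 0.17, edgeR p = 0.0115, adjusted p = 0.55), with Dox higher in 18 of 20 pairs (exact two-sided permutation p = 0.0556). Leaving out each of the 13 mice in turn, the difference ran from 0.40 to 0.60 for Tap1 and from 0.32 to 0.44 for Tap2, never past the threshold.

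The classical heavy chains and B2m differed less. H2-K1 was 0.21 higher with Dox (SE 0.14, adjusted p = 0.772) and H2-D1 0.23 (SE 0.15, adjusted p = 0.763), each higher in 15 of 20 pairs. B2m was 0.06 higher (SE 0.097, adjusted p = 0.929), with 10 of 20 pairs in each direction. Replicate 1 of the ASAH+ mice on Etoh-Dox held the highest level of all 13 mice for H2-K1 (1712 CPM), H2-D1 (850.2 CPM) and B2m (1633 CPM). Without it the differences were 0.08 for H2-K1, 0.08 for H2-D1 and -0.04 for B2m.

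The class II genes were 0.52 (Cd74) to 0.75 (H2-Ab1) higher with Dox in ASAH+ mice. H2-Ab1 had an edgeR p of 0.0351 (SE 0.32, adjusted p = 0.643), and the other 3 genes had adjusted p from 0.699 to 0.744. These differences rested on the 1 mouse described above: without it they were 0.05 for H2-Aa, 0.31 for H2-Ab1, 0.18 for H2-Eb1 and 0.10 for Cd74. Of the 9 genes other than H2-Q10, 0 were then higher without overlap, as with all mice, and without that mouse 2.68% of all genes were.

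The third contrast sets ASAH- mice given Dox against ASAH+ mice without it. It differs in both Dox and the transgene construct, and it is the one that chose H2-Q10. All 10 genes were higher in ASAH- mice on Etoh-Dox, with a median log2 difference of 0.45 beside 0.02 over all genes. H2-Q10 and all 4 class II genes did not overlap between the groups, where 3.09% of all genes were higher without overlap. H2-Aa was 0.56 higher (24.3 to 25.4 against 15.6 to 19.8 CPM), H2-Ab1 0.72 (15.4 to 21.2 against 9.88 to 13.1 CPM), H2-Eb1 0.58 (14.5 to 18.1 against 9.84 to 13.8 CPM) and Cd74 0.55 (60.3 to 73.5 against 40.9 to 55.0 CPM). Tap1 (0.53) and Tap2 (0.37) were higher in 15 of 16 pairs of mice. H2-K1 (0.14), H2-D1 (0.18) and B2m (0.08) overlapped widely.

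Markers of several cell types moved with this contrast. All 10 Kupffer cell markers were on average higher in ASAH- mice on Etoh-Dox, and their sum was 504 to 1029 CPM there against 376 to 470.5 CPM in ASAH+ mice on Etoh. All 8 B cell markers were higher on average as well (sum 9.36 to 14.4 against 4.24 to 7.29 CPM). Dendritic cell markers summed to 8.26 to 11.5 against 7.28 to 9.12 CPM. All 7 stellate cell markers (median log2 difference 0.27) and all 5 cholangiocyte markers (0.29) were higher on average too. So were all 6 T cell and NK cell markers tested (0.43) and 5 of 6 monocyte and recruited macrophage markers (0.40). Of 7 sinusoidal endothelial cell markers 3 were higher (median -0.10), as were 6 of 8 hepatocyte markers (0.08). The 5 red-cell markers had a median log2 difference of 2.16 here and of 1.85 with Dox against without it in ASAH+ mice, where B cell markers were also apart (8.88 to 15.4 against 4.24 to 7.29 CPM). In that contrast all 10 Kupffer cell markers had a positive difference (median 0.42), as did the 5 dendritic cell markers tested (0.48). So did all 6 monocyte and recruited macrophage markers tested (0.16). The difference was also positive for 5 of 6 T cell and NK cell markers (0.57) and 5 of 7 stellate cell markers (0.11). Of 5 cholangiocyte markers 1 had a positive difference (median -0.08), as had 3 of 8 hepatocyte markers (-0.06). The dendritic cell difference rested on the 1 mouse that stood apart, whose sum was 15.7 CPM, while the other 4 ASAH+ mice on Etoh-Dox were at 7.58 to 8.39 CPM, within the 7.28 to 9.12 CPM of the mice on Etoh. T cell and NK cell markers summed to 7.46 CPM in that mouse and to 3.12 to 3.49 CPM in the other 4. In the mice on Etoh they summed to 2.31 to 3.42 CPM. In the same contrast 5 of 7 sinusoidal endothelial cell markers were lower at an unadjusted p under 0.05 (median -0.45), beside 3.24% of all genes. The part of these cell types in the levels of the 10 genes and of the interferon-stimulated genes was not tested.

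**Figure D3:**
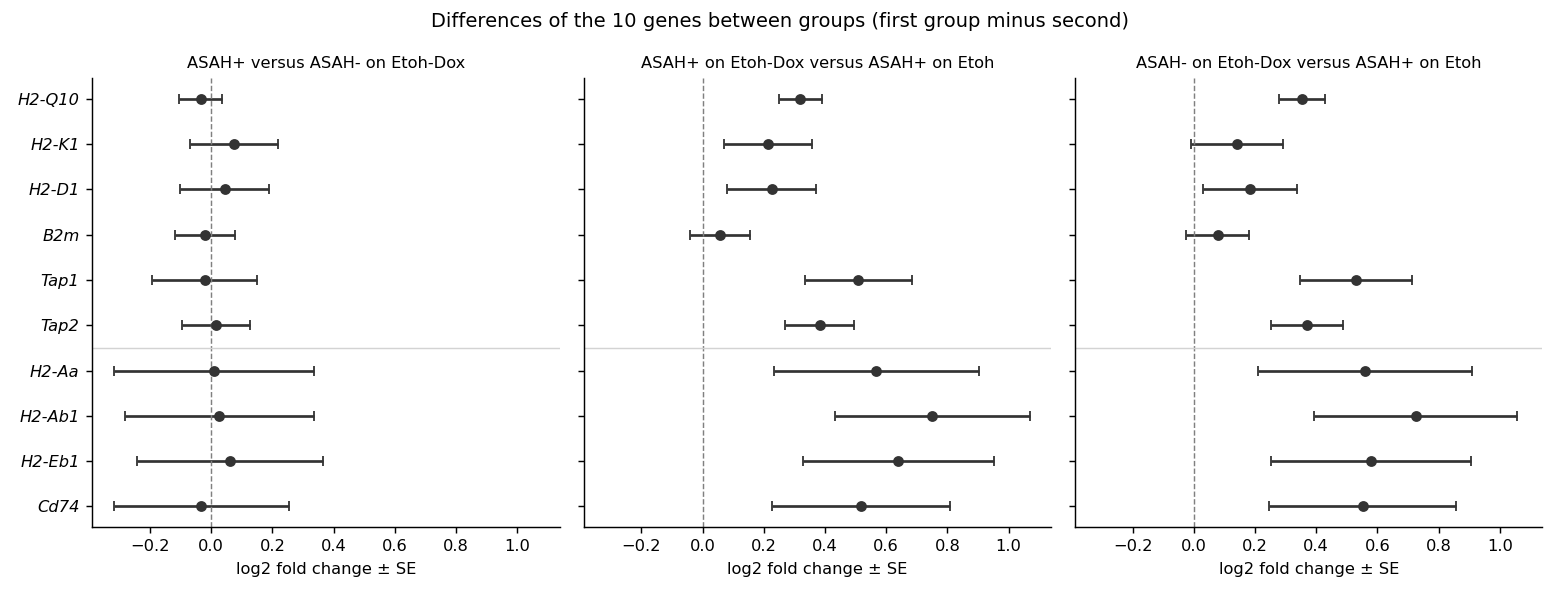
Log2 differences ± SE (horizontal axes, first group minus second) of the 10 genes in the 3 contrasts, class I genes above the grey line and class II genes below it. They run from -0.03 to 0.07 between the genotypes on Etoh-Dox, and all are above 0 in both contrasts with ASAH+ mice on Etoh, which share the Etoh group.

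From mouse to mouse the genes fell into blocks. The 6 pairs of class II genes had a Pearson r of log2 CPM from 0.96 to 0.99 over 13 mice (Spearman rho 0.90 to 0.98). All 6 had the smallest permutation p that 100000 resamples give, with an adjusted p of 5.62e-05 over the 45 pairs computed. With group means removed, r was 0.96 to 0.99, and without the ASAH+ mouse that stood apart it was 0.91 to 0.98. Without the 2 mice farthest from the median it was 0.90 to 0.98.

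H2-K1, H2-D1 and B2m formed the other block. Their r was 0.98 (H2-K1 with H2-D1), 0.91 (H2-K1 with B2m) and 0.89 (H2-D1 with B2m), with adjusted permutation p up to 0.0003. Without the 2 mice farthest from the median the lowest of the 3 was 0.77. With group means removed they ran from 0.91 to 0.98.

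H2-Q10 and the transporter genes had lower r with the genes of either block than those genes had within their block. H2-Q10 had r = 0.86 with Tap2 and 0.45 to 0.61 with H2-K1, H2-D1 and B2m, described without a test since the group means of H2-Q10 were part of the choice. With group means removed it was 0.66 with Tap2 and 0.62 to 0.70 with H2-K1, H2-D1 and B2m, but -0.25 with Tap1 and -0.09 to 0.13 with the class II genes. Tap2 had r = 0.68 with H2-K1 (rho = 0.67, adjusted permutation p = 0.0338) and 0.69 with H2-D1. With group means removed, Tap2 had r = 0.62 to 0.68 with H2-K1, H2-D1 and B2m and -0.01 to 0.13 with the class II genes.

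Over all 13 mice, Tap1, although a class I gene, had its highest correlations among the 10 genes with the class II genes. It had r = 0.62 to 0.68 with the 4 class II genes (rho 0.66 to 0.71, adjusted permutation p from 0.0338 to 0.0558), and 0.42 to 0.53 with group means removed. The permutations moved mice across groups, so these p also take in differences between group means. The r with group means removed was not tested. Without the 2 mice farthest from the median of Tap1, r was 0.42 to 0.55 with the class II genes and 0.53 with Tap2, so that the order no longer held. With H2-Q10 r was 0.55 over all mice (-0.25 with group means removed), and 0.63 without the 2 mice farthest from the median of H2-Q10. With H2-K1, H2-D1 and B2m, Tap1 had r = 0.29 to 0.30, and with Tap2 0.50 (-0.02 with group means removed). The difference between these correlations was not tested.

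**Figure D4:**
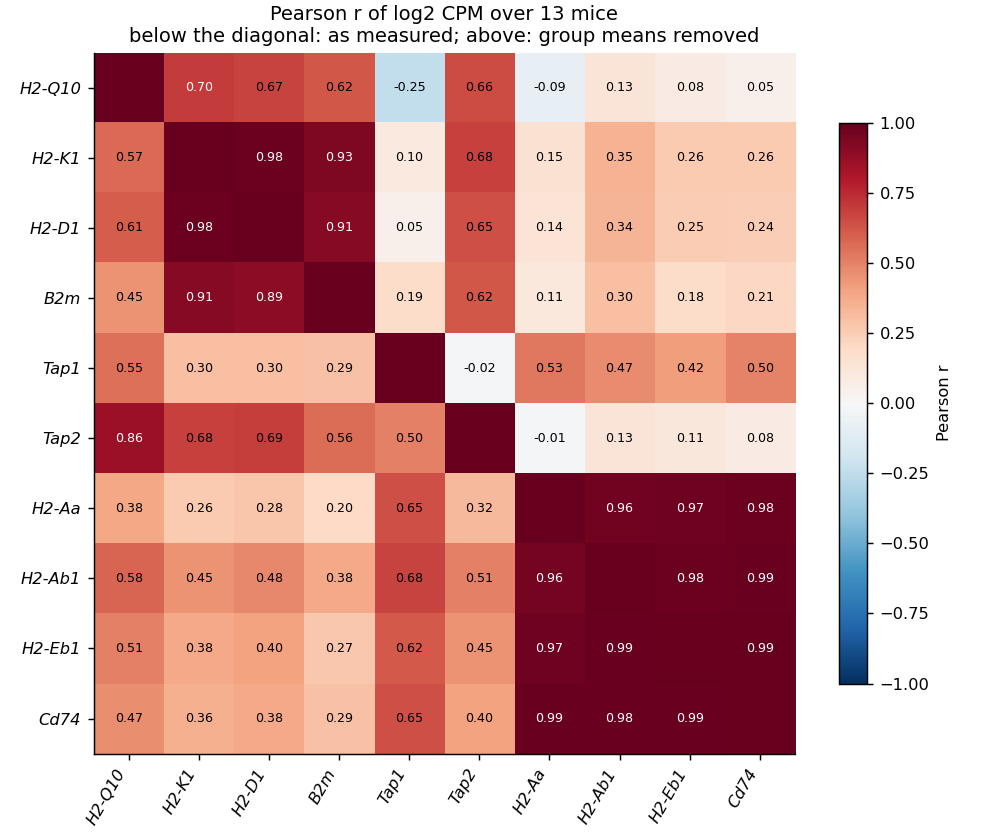
Pearson r of log2 CPM for each pair of the 10 genes over 13 mice, as measured below the diagonal and with group means removed above it. The class II genes form a block with r of 0.96 or more, and H2-K1, H2-D1 and B2m form another with r of 0.89 or more.

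Among the other genes tested, the 5 most like H2-Q10 over the 13 mice were Clstn1 (r = 0.92), Bloc1s1 (0.92), Gm38317 (0.89), Rab24 (0.88) and Angptl6 (0.87). With group means removed these were 0.79, 0.78, 0.63, 0.58 and 0.47. Of these, Bloc1s1 was at 24.3 to 33.1 CPM in the 9 mice given Dox and at 19.98 to 23.1 CPM in ASAH+ mice on Etoh. Clstn1, Rab24 and Angptl6 likewise did not overlap between these mice, and Gm38317 did. All 5 were picked for their likeness to H2-Q10, whose group levels were part of the choice. Their separation therefore follows in part from the picking and is no test. The 5 most like Cd74 were H2-DMb1 (r = 0.89), Plxdc2 (0.89), Traf1 (0.86), H2-DMa (0.85) and Ednra (0.85). H2-DMa and H2-DMb1 encode the chains of H2-DM, which loads peptide onto class II molecules. Without the ASAH+ mouse that stood apart, r with Cd74 was 0.84 for H2-DMa, 0.76 for H2-DMb1 and 0.66 for Traf1.

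Of 89 other genes listed for the pathway, 88 were in the table and 83 could be tested. By edgeR, 0 of the 83 passed an adjusted p under 0.1 in either tested contrast, beside 0.014% of all genes in each. Between the genotypes on Etoh-Dox, 4 were higher and 4 lower at an unadjusted p under 0.05 (1.29% and 1.57% of all genes), and the median log2 difference of the 83 was -0.03. Those higher were the class II loading gene H2-DMb2 and 3 endoplasmic reticulum chaperones whose clients include class I heavy chains. The chaperones were Calr (0.42, SE 0.18), Pdia3 (0.43, SE 0.19) and Canx (0.24, SE 0.11), each with an adjusted p of 0.9997. H2-DMb2 was low, at 0.61 to 0.83 CPM in ASAH+ and 0.32 to 0.62 CPM in ASAH- mice. Calr was at 469 to 946 CPM in ASAH+ and 423 to 664 CPM in ASAH- mice, which overlapped.

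The 4 genes that were lower in ASAH+ mice belong to the 25 interferon-stimulated genes, of which 20 had a negative difference and 5 a positive one (median -0.21). Rsad2, an antiviral enzyme, had the lowest p (-0.64, SE 0.24, adjusted p = 0.9997), followed by Ifit1 (-0.70, SE 0.28) and Mx1 (-0.53, SE 0.24).

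With Dox against without it in ASAH+ mice, 15 of the 83 genes were higher and 2 lower at an unadjusted p under 0.05, where 4.05% of all genes were higher and 3.24% lower. The median was 0.22. Of the 25 interferon-stimulated genes, all had a positive difference (median 0.46) and 10 were among the 15. Bst2, an antiviral membrane protein, was the 1 gene of the 83 that was higher without overlap, near the 1.09% of all genes, at 94.7 against 67.6 CPM (0.49, SE 0.13, adjusted p = 0.473). Gbp6 (0.86, SE 0.24, adjusted p = 0.505) and Ifit3 (0.75, SE 0.23, adjusted p = 0.512) followed. These p are from edgeR, and DESeq2 gave lower ones. For Bst2 its adjusted p was 0.0400 on all mice and 0.152 on the 2 groups alone. On the 2 groups alone it was 0.0371 for Gbp6 and 0.179 for Ifit3. In these 2 fits DESeq2 called 2.97% and 0.821% of the genes to which it gave an adjusted p.

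The immunoproteasome subunits Psmb9 (0.42, SE 0.18, adjusted p = 0.644) and Psmb8 (0.28, SE 0.12, adjusted p = 0.632) were the 2 class I processing genes among the 15. Tapbp, which holds class I at the transporter, had a difference of 0.27 (SE 0.13, adjusted p = 0.681). Among the other heavy chains, H2-T23 (0.22, SE 0.099, adjusted p = 0.664) and H2-Q4 (0.28, SE 0.13, adjusted p = 0.676) were higher at an unadjusted p under 0.05, and H2-Q2 lower (-0.98, SE 0.44, adjusted p = 0.651), at 0.11 to 1.02 CPM. H2-DMb1 was the class II loading gene with the lowest p (0.63, SE 0.29, adjusted p = 0.672). Its highest value, 5.44 CPM, was in the ASAH+ mouse that stood apart for class II. The medians of H2-DMb1 were 2.34 CPM on Etoh-Dox and 1.90 CPM on Etoh. Ctsl, a lysosomal protease, had a negative difference (-0.39, SE 0.18, adjusted p = 0.68). March1, a ubiquitin ligase that takes class II off the surface, had a positive one (0.50, SE 0.25, adjusted p = 0.704). March1 was likewise highest in the mouse that stood apart (5.73 CPM), with medians of 3.69 CPM on Etoh-Dox and 2.79 CPM on Etoh.

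Of 18 regulators, 0 were higher and 1, the kinase gene Jak1, was lower at an unadjusted p under 0.05 (-0.17, SE 0.075, adjusted p = 0.658), beside the same 4.05% and 3.24% of all genes. The class I activator Nlrc5 had a difference of 0.12 (SE 0.14). The class II activator Ciita had one of 0.53 (SE 0.49), at a mean of 1.18 CPM on Etoh-Dox and 0.81 CPM on Etoh. The ranges of Ciita overlapped, at 0.48 to 2.41 CPM on Etoh-Dox and 0.51 to 1.59 CPM on Etoh. Its highest value was in the ASAH+ mouse that stood apart for class II.

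In the third contrast, again without a test, all 25 interferon-stimulated genes were higher, with a median log2 difference of 0.63, and 11 of them were higher without overlap, beside 3.09% of all genes. Rsad2 was 1.20 higher, Ifit3 1.10 and Isg15 1.02. Over all 5 lists, 16 of the 83 genes were higher without overlap, beside the same 3.09%, among them Psmb9 (0.53), H2-T23 (0.42), H2-DMa (0.80) and Ctss (0.45), a protease that degrades the invariant chain.

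**Figure D5:**
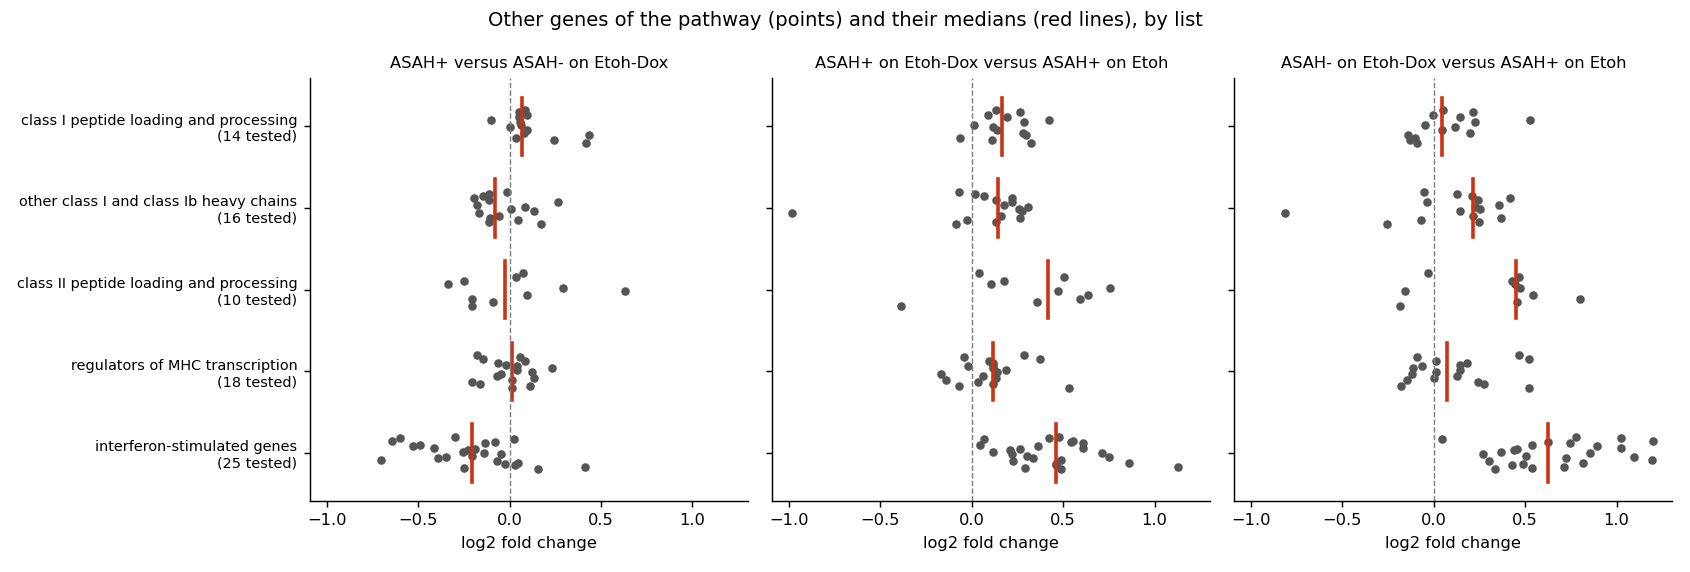
Log2 differences (horizontal axes) of 83 other genes of the pathway (points) by list, with the median of each list as a red line, in the 3 contrasts. The interferon-stimulated genes have a median of -0.21 between the genotypes on Etoh-Dox, and of 0.46 and 0.63 in the contrasts with ASAH+ mice on Etoh.

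Class I genes resemble each other, so their reads can be divided wrongly. Of the 31-base words in the transcripts of H2-Q10, 18.1% also occurred in another gene, as did 20.3% for H2-K1 and 27.6% for H2-D1. Of windows of 100 bases, 2.06% of H2-Q10 and 4.64% of H2-D1 occurred elsewhere and 0 of H2-K1. With the counts of 10 class I heavy chain genes summed, the log2 difference was 0.02 between the genotypes on Etoh-Dox (SE 0.11), 0.26 with Dox against without it in ASAH+ mice (SE 0.11) and 0.24 in the third contrast (SE 0.11). Of the class II genes, at most 1.66% of words were shared.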

How the data were processed

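Whole-liver poly(A) RNaseq of 13 mice was analysed as 3 groups. The authors mapped reads with salmon to GENCODE M19 transcripts on GRCm38.p6 and summed them to genes, and the deposited estimated counts are whole numbers without scaling. In this step, reads that fit several similar genes are shared by estimated abundance. In R 4.3.3, counts were filtered by edgeR 4.0.16 with the 3 groups, normalized by TMM and fitted by the robust quasi-likelihood method over all 13 mice, with Benjamini-Hochberg adjustment over 14317 genes and a threshold of 0.1. SE was the log2 fold change over the square root of F. CPM were TMM-scaled, and log2 CPM used a prior count of 2. Single genes were also compared by exact two-sided permutation of mice, for which 5 against 4 can give no p below 0.00794. Correlations were tested by 100000 permutations of the 13 mice regardless of group, so their p also takes in differences between groups. Alternatives were DESeq2 1.42.0, limma-voom (limma 3.58.1), DESeq2 size factors, no filter on low counts, a minimum of 10 counts in each mouse, no robust dispersion, the 2 groups alone, a replicate block, 0.05 as threshold and each mouse left out. The methods were tested on simulated data.

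The genes, lists and motifs were chosen with earlier results of these data known. Named genes were the 10 genes, in each list and contrast any past the threshold and up to 3 with the lowest p, and the 5 most like H2-Q10 and Cd74. Others (Ctss, Ciita, Nlrc5 and the markers) were named after their values were seen. Some genes that the rule names are not reported here. Lengths are of the longest coding transcript in GENCODE M21. Replicates are separate mice, so p-values measure the spread between mice. Counting error is only part of the technical error.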

Additional observations from a re-analysis of the deposited data

Results flagged for a closer look

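In groups of 4 or 5 mice, the highest or lowest mouse was compared with the rest for the 10 genes by Dixon's ratio. Of 30 gene and group combinations 7 stood out, and chance alone gives about 1 in 20. Replicate 2 of the ASAH+ mice on Etoh-Dox was far above the other 4 for all class II genes, with H2-Aa at 55.4 CPM (next highest 21.0), H2-Ab1 at 37.6 CPM (17.1), H2-Eb1 at 35.4 CPM (14.2) and Cd74 at 132 CPM (57.7). Replicate 4 of the ASAH+ mice on Etoh was above the other 3 for H2-Ab1 at 13.1 CPM (10.4) and H2-Eb1 at 13.8 CPM (10.1). B2m was at 1633 CPM in replicate 1 of the ASAH+ mice on Etoh-Dox (next highest 1295 CPM). The 4 class II genes move together, so their flags are not independent.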

How the results depend on the processing

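The counts of the 10 genes and of other pathway genes past the threshold were 0 in both tested contrasts and stayed 0 under limma-voom, DESeq2 size factors, both count filters, no robust dispersion, the pair-only fits, the stricter threshold and in each of the 13 fits without 1 mouse (0 to 0). DESeq2 differed. With Dox against without it in ASAH+ mice it called 1 of the 10 genes on all mice and 1 on the 2 groups alone. In both this was H2-Q10, which had been chosen for its level, and 0 of the other 9 were called. It also called 1 (Bst2) and 2 (Gbp6 among them) other pathway genes. Of the 3198 and 13768 genes to which it gave an adjusted p, it called 2.97% and 0.821%. The third contrast chose the genes, so its counts are a description with no test of a member. There edgeR and the same alternatives called 0, beside the same 0.014% of all genes by edgeR and by limma-voom. DESeq2 called 1 and 5 of the 10 genes, with 9 and 13 other pathway genes. There it called 1.49% and 1.59% of the 10065 and 10553 genes to which it gave an adjusted p. With Dox against without it in ASAH+ mice, DESeq2 on all mice gave an adjusted p to only 3198 genes, which left out Tap1, Tap2, H2-Aa, H2-Ab1 and H2-Eb1. The cause of these differences in calls was not tested.

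The near-zero differences between the genotypes on Etoh-Dox turned sign under some settings. Under limma-voom they were -0.18 for H2-Aa, -0.11 for H2-Ab1 and -0.0832 for H2-Eb1. Without 1 mouse, they ran from -0.049 to 0.15 for H2-K1, -0.090 to 0.12 for H2-D1, -0.10 to 0.014 for B2m, -0.13 to 0.084 for Tap1, -0.047 to 0.075 for Tap2, -0.51 to 0.15 for H2-Aa, -0.42 to 0.17 for H2-Ab1, -0.39 to 0.19 for H2-Eb1 and -0.46 to 0.10 for Cd74. With Dox against without it in ASAH+ mice, B2m ran from -0.036 to 0.090.

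The replicate numbers belong to different mice and pair no samples. With the number as a replicate block, 0 of the 10 genes passed in each contrast, beside 0.00698%, 0.014% and 0% of all genes, so this count says nothing about the members. With the block, Tap1 was at 0.078 between the genotypes on Etoh-Dox. Same-numbered mice had mean correlations of deviations of -0.13, 0.06 and -0.06.

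Depth did not limit the 10 genes, whose lowest count in a mouse was 212 (H2-Eb1). The number of mice and the missing group of ASAH- mice without Dox limit what the contrasts can separate.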
